A study of Mus musculus with 2 samples.

Results

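The VEGF ligands, receptors and neuropilins followed here are 9 genes, chosen by symbol from the 31055 features that were counted in both libraries. They are the ligands Vegfa, Vegfb, Vegfc and Pgf, the receptors Flt1 (VEGFR1), Kdr (VEGFR2) and Flt4 (VEGFR3), and the neuropilins Nrp1 and Nrp2. All 9 symbols were found, each for a single feature, and all had unique molecular identifiers (UMIs) in both libraries.

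Droplet-based single-cell RNA sequencing (scRNAseq) was performed on endothelial cells sorted from orthotopic tumors of wild-type mice, with 1 library for PyMT tumors and 1 for KPC tumors. Into female C57BL6 mice, 6 weeks old, 100000 tumor cells were implanted in the mammary gland (PyMT, a line from MMTV-PyMT tumors) or the pancreas (KPC, a line from pancreatic tumors of genetically engineered p48-Cre mice), and tumors were digested on day 10, with collagenase at 400 U/mL for PyMT and 500 U/mL for KPC. Cells carrying CD45, EpCAM, Ter119, podoplanin or Annexin V were depleted before the sort, so shares of lymphatic and epithelial cells are set by that step too. How many mice went into each library is not given in the sources used here, and each model rests on 1 implanted line.

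Vascular endothelial growth factors are secreted proteins that drive the growth of blood and lymphatic vessels. VEGF-A signals mainly through the kinase receptor VEGFR2 on endothelial cells, while VEGFR1 binds VEGF-A, VEGF-B and placental growth factor (PlGF, encoded by Pgf) tightly and, in its soluble form, acts as a decoy. VEGF-C and VEGF-D act through VEGFR3, the receptor of lymphatic endothelium, and neuropilins are co-receptors that also bind class 3 semaphorins. Endothelial tip cells, marked by Apln and Angpt2, lead vessel sprouts toward VEGF-A.

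Cells were put into 9 classes by the summed UMIs of a pair of genes, in this order: tumor (Krt8 and Krt18, at least 5), fibroblast (Col1a1 and Col1a2, at least 10), lymphatic (Mmrn1 and Prox1, at least 3), pericyte (Notch3 and Higd1b, at least 2), venule (Ackr1 and Selp, at least 3), artery (Gja5 and Sema3g, at least 2), tip (Apln and Angpt2, at least 3), capillary (Car4 and Cd300lg, at least 2) and other. None of the 9 members is in a gate. The last 5 classes together are called blood endothelial cells (BECs). A level is the CPM of a gene, its share of all UMIs summed over a class on the usual CPM scale, given with its exact 95% Poisson interval in brackets, a ratio is a log2 ratio of 2 such levels with its exact 95% interval, and a share of cells with a UMI after thinning to 2000 UMIs per cell has a Clopper-Pearson interval. These intervals cover counting error only. With 1 library per model, and with cells that cannot stand in for replicates, every comparison is a description without a p-value. "Past 2-fold" means a log2 ratio of at least 1 in size among features with at least 20 UMIs over both sides.

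The PyMT library held 11744 cells after filtering, at a median of 3978 UMIs, of which 10677 (90.9%) were classed as BECs. The KPC library held 9591 cells at a median of 3141 UMIs, of which 7433 (77.5%) were classed as BECs. These include the other class, cells that passed no gate, with 5603 cells in PyMT and 4089 in KPC. The 2 libraries shared 151 cell barcodes among the cells kept. Tip cells numbered 1991 in PyMT and 1302 in KPC, capillary cells 2597 and 1297, venule cells 360 and 640, artery cells 126 and 105, and lymphatic cells 633 and 802.

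The classes are ranges of a score, and independent markers bore them out unevenly. Lymphatic cells had Lyve1 at 872 CPM in PyMT and 1846 in KPC against 21.6 and 42.8 in BECs, and artery cells had Gja4 at 1944 and 1880 CPM against 87.7 and 142 in BECs. Venule cells had Lrg1 at 2814 and 3576 CPM against 821 and 1146 in BECs. All 6 venule markers were above BECs in PyMT and 5 in KPC, where Ephb4 was at 39.3 CPM against 39.5. Vwf, 1 of these markers, was higher in artery than in venule cells, at 369 against 244 CPM in PyMT and 269 against 251 in KPC. Tip cells had Esm1 at 399 and 894 CPM against 185 and 478, and all 6 tip markers were above BECs in KPC but only 3 of 6 in PyMT, where Cxcr4, Nid2 and Mcam were not. Of the 6 capillary markers, all were above BECs in KPC capillary cells and 5 in PyMT, where Gpihbp1 was at 1076 CPM against 1169 and the others exceeded BECs by less than in KPC, such as Fabp4 at 2742 against 2084 in PyMT and 9213 against 5467 in KPC. In PyMT, Fabp4, Cd36 and Aqp1 were higher in venule cells (3072, 400 and 1211 CPM) than in capillary cells (2742, 321 and 387). Gpihbp1, Rgcc and Tcf15 were lower in those venule cells. In PyMT the capillary gate rested on Car4, which had at least 1 UMI in 95.3% of the class and was also at 379 CPM in tip and 675 CPM in venule cells, whereas Cd300lg had none in 65.7% of the class. The PyMT class gated on Krt8 and Krt18 held Krt19 at 1.0 CPM and Epcam at 19.7 CPM, against 2789 and 170 CPM in KPC, and is therefore called by its gate, the Krt8/Krt18 class, in both libraries. The pericyte gate gave 27 cells in PyMT and 119 in KPC with Rgs5 at 1992 and 4125 CPM, but with Pecam1 at 84.8% and 55.9% of the BEC level, so it is called the Notch3/Higd1b class. Fibroblasts numbered 28 in PyMT and 443 in KPC. The other class, which no gate selects, had Pecam1 at 677 and 958 CPM against 734 and 935 in BECs. It also held Ccl21a at 484 and 585 CPM, against 82.6 and 72.7 in capillary cells. Its Dcn was at 24.4 and 143 CPM, against 5.75 and 11.5, so it may hold cells that are not blood endothelial.

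Many cells lay at a threshold. Of the capillary cells, 742 in PyMT and 627 in KPC had exactly 2 UMIs of the pair, and 1985 and 1773 cells had 1. Of the tip cells, 547 and 256 had exactly 3 UMIs, and 1140 and 543 cells had 2. The median per cell of every other gate was 0 UMIs in each gated class, except for the capillary pair in the tip, venule and Notch3/Higd1b classes of PyMT, the tip pair in lymphatic cells and the fibroblast pair in Notch3/Higd1b cells of both libraries, each at 1 UMI. More than 1 gate was passed by 40.0% of PyMT and 14.1% of KPC tip cells, and by 52.5% and 22.2% of venule cells. In lymphatic cells these shares were 26.7% and 34.0%, and in Notch3/Higd1b cells 59.3% and 24.4%. PyMT venule cells held a mean of 2.98 UMIs of the capillary pair, against 0.319 in KPC venule cells.

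Kdr lies on chromosome 5 at 75932827 to 75978458 and Flt1 on chromosome 5 at 147561604 to 147726011, both on the minus strand (GRCm38, GENCODE M21). Nrp1 lies on chromosome 8 at 128358604 to 128503363 (plus strand), Nrp2 on chromosome 1 at 62703285 to 62818695 (plus strand), Flt4 on chromosome 11 at 49609263 to 49652739 (plus strand) and Pgf on chromosome 12 at 85166635 to 85177790 (minus strand). Nrp2 was the member with an overlapping counted gene, Gm29083 on the other strand, which had 2 UMIs in PyMT and 0 in KPC. Kdr and Flt1, the 2 receptors of blood vessels that were higher in capillary than in tip cells of KPC, are shown by the 240 bases from 250 to 11 bases before the RefSeq start of each, at chr5:75978466-75978705 and chr5:147726022-147726261 of GRCm38.p6, 5′ to 3′ on the minus strand. Capitals mark GGAA on either strand (written GGAA or TTCC), the core of sites for ETS factors, a family active in endothelium. The matches do not overlap one another.
Kdr: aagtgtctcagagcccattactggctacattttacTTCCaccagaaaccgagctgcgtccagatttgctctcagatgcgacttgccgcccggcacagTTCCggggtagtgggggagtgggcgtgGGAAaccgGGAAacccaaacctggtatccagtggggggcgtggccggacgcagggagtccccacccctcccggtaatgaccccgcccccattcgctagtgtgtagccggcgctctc
Flt1: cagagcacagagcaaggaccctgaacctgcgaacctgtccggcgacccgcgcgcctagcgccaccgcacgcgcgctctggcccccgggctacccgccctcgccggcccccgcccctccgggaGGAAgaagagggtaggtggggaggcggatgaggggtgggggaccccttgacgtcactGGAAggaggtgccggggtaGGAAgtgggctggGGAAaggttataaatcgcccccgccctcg
Both windows held 4 matches, against a median of 3 over the 32851 RefSeq promoter windows of the same length, of which 92.7% held at least 1 match and 30.5% at least 4. Over the other members, the windows held 6 and 1 matches for Vegfa, 4 for Nrp1, 2 for Flt4, and 0 and 0 for Pgf. Those of Nrp2, Vegfb and Vegfc held 1 each. A match is a description of the sequence and not a binding site.

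Among the receptors, Kdr, the main signaling receptor for VEGF-A, was highest in the capillary class of KPC tumors and spanned a narrower range across BEC classes of PyMT tumors, with artery cells highest. In KPC, Kdr was at 972 CPM (940 to 1004) in capillary cells, 604 (590 to 619) in other BECs, 436 (367 to 514) in artery, 413 (399 to 426) in tip and 358 (337 to 380) in venule cells. The capillary and other classes stood apart from the rest, while the intervals of artery and tip cells overlapped. Median UMIs per cell in KPC were 1879 in capillary, 2071 in other, 2485 in artery, 5449.5 in tip and 3837 in venule cells. Whether depth has a part in the order of classes was not tested. In PyMT, Kdr was at 437 CPM (380 to 500) in artery, 324 (314 to 334) in capillary, 321 (293 to 351) in venule, 297 (287 to 306) in tip and 263 (256 to 270) in other BECs. Lymphatic cells had Kdr at 287 CPM (267 to 309) in PyMT and 330 (311 to 349) in KPC, close to the venule level.

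Flt1, the high-affinity receptor that can act as a decoy, followed the same order of BEC classes in KPC. In KPC it was at 1624 CPM (1582 to 1666) in capillary, 1086 (1067 to 1106) in other, 847 (750 to 954) in artery, 581 (565 to 598) in tip and 573 (546 to 601) in venule cells. In PyMT it was at 607 CPM (540 to 680) in artery, 513 (501 to 526) in capillary, 436 (425 to 448) in tip, 376 (346 to 408) in venule and 366 (358 to 375) in other BECs. Capillary cells thus exceeded tip cells in both libraries, by a log2 ratio of tip over capillary of -0.23 (-0.29 to -0.18) in PyMT and -1.48 (-1.54 to -1.43) in KPC. Lymphatic cells held much less Flt1, at 108 CPM (95.8 to 121) in PyMT and 146 (134 to 159) in KPC.

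Flt4, the receptor for VEGF-C and VEGF-D, was a lymphatic gene in both libraries. It was at 287 CPM (267 to 308) in PyMT and 355 (335 to 375) in KPC lymphatic cells, and at 45.2 (43.3 to 47.1) and 50.9 (48.3 to 53.7) in BECs. Within BECs it was lowest in venule cells, at 18 CPM (11.9 to 26.2) in PyMT and 22.5 (17.4 to 28.7) in KPC. At 2000 UMIs per cell, 44.2% (39.7 to 48.7) of PyMT and 45.4% (41.4 to 49.4) of KPC lymphatic cells had a Flt4 UMI, against 8.61% (8.04 to 9.19) and 8.81% (8 to 9.67) of BECs. In cells of the Krt8/Krt18 class, set beside them for scale, the share was 1.06% (0.29 to 2.69) and 0.761% (0.28 to 1.65). The Flt4 share of BECs lay above that share in both libraries. Without thinning it was 17.6% and 14.7% in BECs, against 5.28% and 4.79% in the Krt8/Krt18 class. Cells of that class were deeper (median 6939 and 12688.5 UMIs, against 3921 and 2753 in BECs), so thinning removed more of their UMIs.

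**Figure D1:**
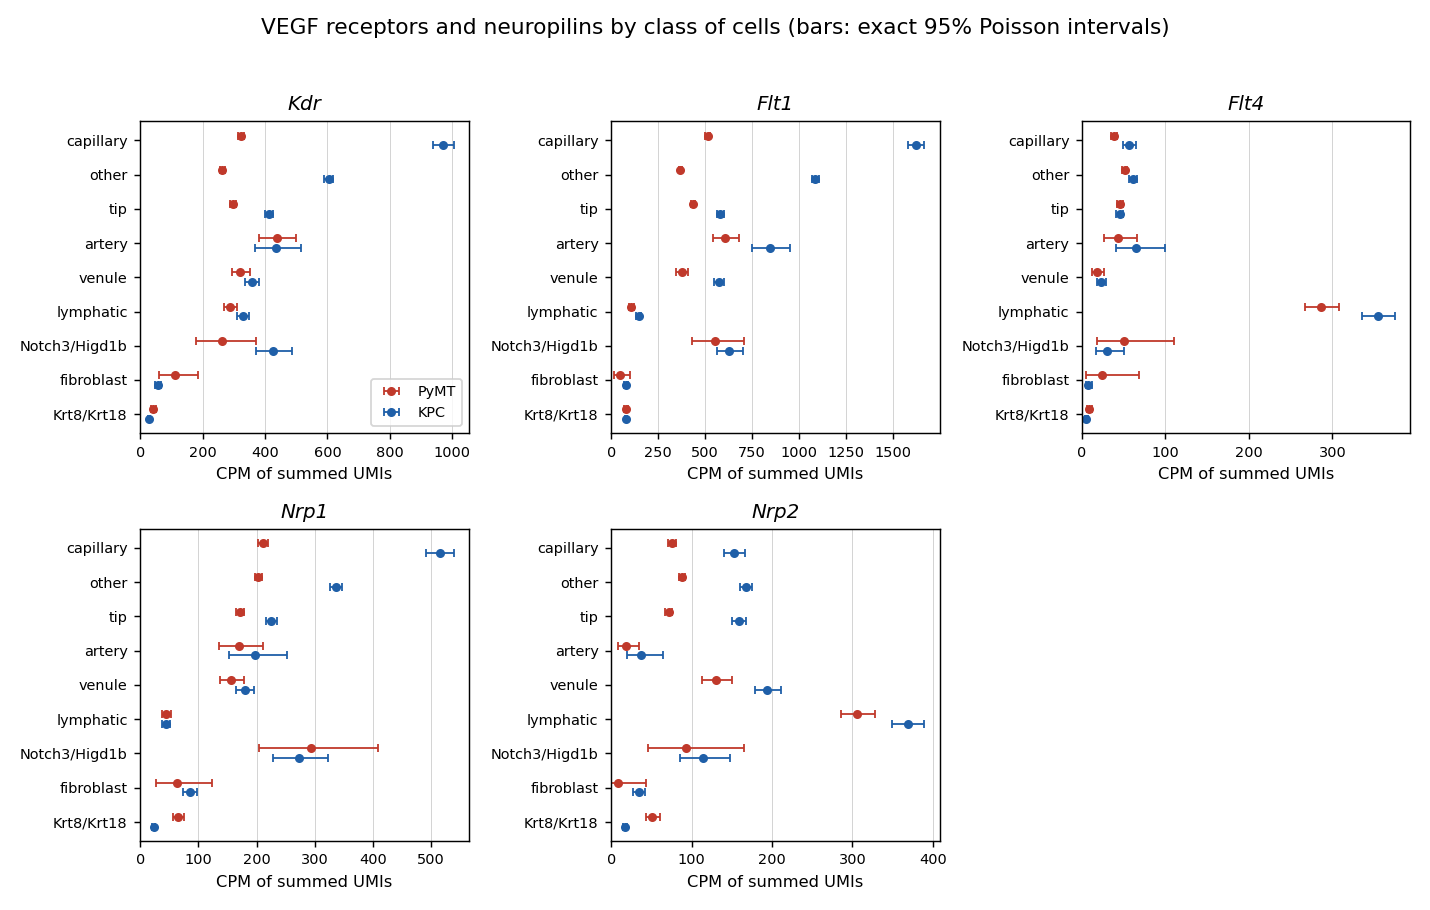
CPM of summed UMIs of the 3 receptors and 2 neuropilins (horizontal axes, linear from 0) in 9 classes of cells (vertical axes), for the PyMT (red) and KPC (blue) libraries, with exact 95% Poisson intervals as bars and 1 library per point. Kdr, Flt1 and Nrp1 are highest in KPC capillary cells (972, 1624 and 515 CPM), whereas Flt4 and Nrp2 are highest in lymphatic cells of both libraries.

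The neuropilins divided the classes differently. Nrp1, which pairs with VEGFR2 in blood vessels, was at 515 CPM (492 to 539) in KPC capillary, 337 (326 to 348) in other, 226 (216 to 236) in tip, 198 (152 to 253) in artery and 180 (165 to 196) in venule cells. Across PyMT BEC classes it lay between 157 CPM (137 to 178) in venule and 211 (203 to 219) in capillary cells. It was low in lymphatic cells, at 44.6 CPM (36.9 to 53.4) in PyMT and 43.8 (37.2 to 51.3) in KPC, so its order was the reverse of that of Nrp2 there.

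Nrp2, which pairs with VEGFR3 in lymphatic and venous endothelium, ran from lymphatic through venule to artery in both libraries. It was at 306 CPM (285 to 328) in lymphatic, 131 (113 to 150) in venule and 18.5 (8.44 to 35.0) in artery cells of PyMT. In KPC these levels were 368 (349 to 389), 194 (179 to 211) and 37.1 (19.2 to 64.8). Artery cells were below capillary cells by a log2 ratio of -2.03 (-3.16 to -1.10) in PyMT and -2.04 (-3.00 to -1.22) in KPC, on 9 and 12 UMIs in artery cells. The intervals of lymphatic, venule and artery cells did not overlap in either library.

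Pgf was the ligand with its highest BEC level in tip cells. Tip cells had Pgf at 88.5 CPM (83.4 to 93.7) in PyMT and 100.1 (93.5 to 107) in KPC. Capillary cells had 15.6 CPM (13.5 to 17.9) and 3.63 (1.94 to 6.22), the latter on 13 UMIs. The log2 ratio of tip over capillary was 2.5 (2.29 to 2.73) in PyMT and 4.78 (4.00 to 5.70) in KPC. Other BECs differed between the libraries, at 56.5 CPM (53.4 to 59.8) in PyMT and 14.6 (12.5 to 17.0) in KPC, while venule cells were low in both, at 13.3 (8.14 to 20.6) and 10.9 (7.47 to 15.4). Lymphatic cells had Pgf at 65.6 CPM (56.2 to 76.1) and 73.5 (64.8 to 83.0), below tip cells in both libraries. After thinning to 2000 UMIs, 11.5% (10.2 to 13) of PyMT and 12% (10.3 to 14) of KPC tip cells had a Pgf UMI, against 2.24% (1.68 to 2.92) and 0.335% (0.0406 to 1.2) of capillary cells (21.2%, 18.4%, 4.51% and 0.617% without thinning).

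Vegfc, a ligand of VEGFR3, had its highest level among the endothelial classes in artery cells. It was at 119 CPM (90.3 to 154) in PyMT and 244 (193 to 304) in KPC artery cells, on 58 and 79 UMIs. Artery cells are few, and of the 885 and 1232 Vegfc UMIs in all BECs the other class held 420 and 689. In the other PyMT BEC classes it lay between 13.4 (11.5 to 15.5) in tip and 19.8 (17.96 to 21.8) in other cells, and in KPC between 21.5 (18.5 to 24.8) in tip and 61.1 (56.6 to 65.9) in other cells. Lymphatic cells, which carry its receptor, had 4.87 CPM (2.59 to 8.33) and 7.92 (5.26 to 11.4). After thinning, 24.3% (16.5 to 33.5) of PyMT and 44.8% (32.6 to 57.4) of KPC artery cells had a Vegfc UMI (32.5% and 48.6% without thinning), against 0.409% (0.0496 to 1.47) and 0.976% (0.359 to 2.11) of lymphatic cells.

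Vegfa, the main driver of vessel sprouting, was nearly missing from endothelial cells and found outside them. BECs held it at 0.941 CPM (0.689 to 1.25) in PyMT and 2.52 (1.95 to 3.20) in KPC, on 46 and 67 UMIs. The Krt8/Krt18 class had 9.17 CPM (6.04 to 13.3) and 37.5 (34.0 to 41.3), and fibroblasts had 102 (54.4 to 175) and 45.7 (37.5 to 55.2). The PyMT fibroblast value rests on 13 UMIs in 28 cells. PyMT venule cells had 0 Vegfa UMIs in 360 cells, with an interval of up to 2.46 CPM. The highest endothelial level was in KPC artery cells, at 15.5 CPM (5.02 to 36.1) on 5 UMIs. This interval overlapped that of the KPC Krt8/Krt18 class. Vegfb, a ligand of VEGFR1, was low everywhere, from 0 UMIs in KPC artery cells to 36.2 CPM (30.2 to 43.0) in KPC lymphatic cells, and lymphatic cells exceeded BECs in both libraries, by 1.28 (0.89 to 1.66) in PyMT and 1.61 (1.30 to 1.91) in KPC on the log2 scale.

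**Figure D2:**
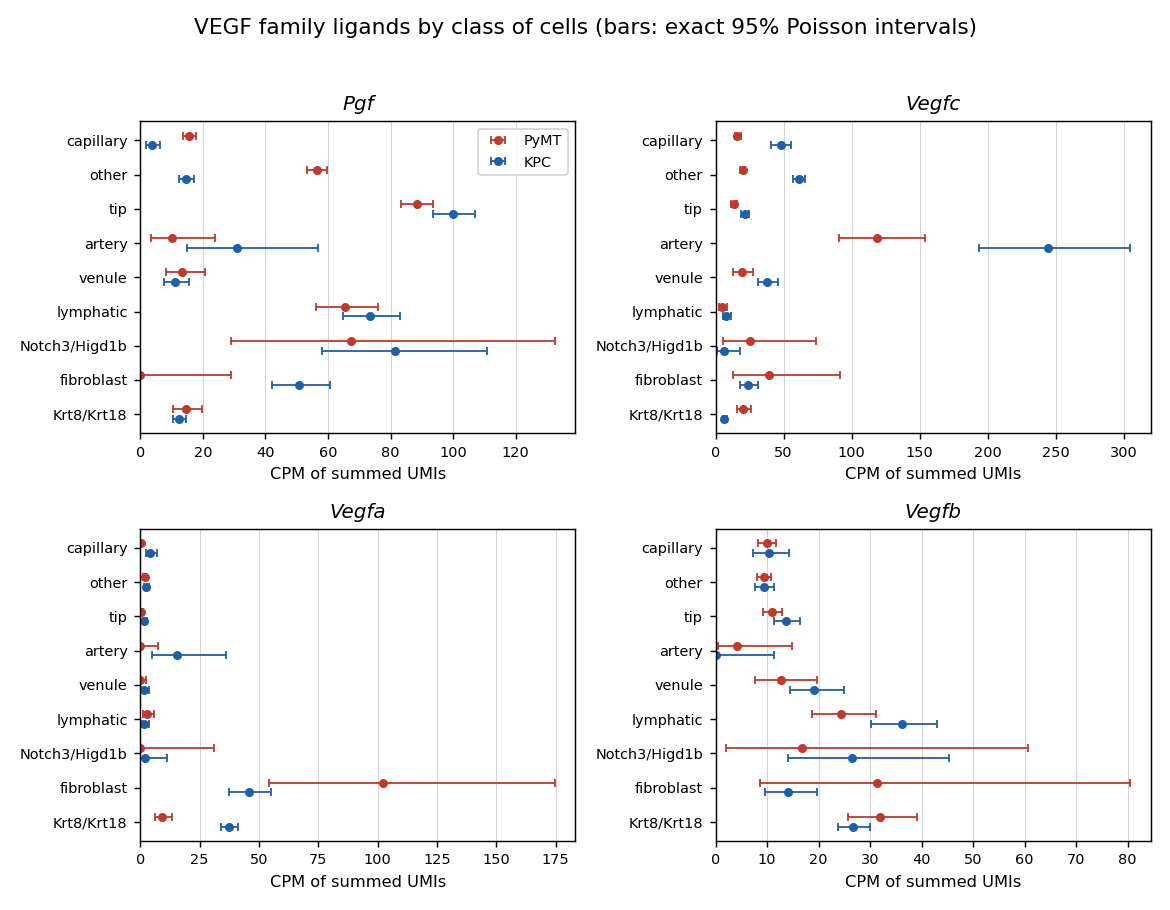
CPM of summed UMIs of the 4 ligands (horizontal axes, linear from 0, different scales) in 9 classes of cells (vertical axes), for the PyMT (red) and KPC (blue) libraries, with exact 95% Poisson intervals as bars. Pgf is highest in tip cells (88.5 and 100.1 CPM), Vegfc in artery cells (119 and 244 CPM), and Vegfa in fibroblasts (102 and 45.7 CPM). Intervals overlap those of the Notch3/Higd1b class for Pgf in both libraries (67.2 and 81.4 CPM). They also overlap those of fibroblasts for Vegfc in PyMT (39.3 CPM) and of the Krt8/Krt18 class for Vegfa in KPC (37.5 CPM).

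Tip over capillary cells sets the class gated on Apln and Angpt2 against the class gated on Car4 and Cd300lg. Its sides differed in median depth, at 5845 against 4254 UMIs in PyMT and 5449.5 against 1879 in KPC. The part of depth in these ratios was not tested. In PyMT, 1 of the 9 members was past 2-fold, Pgf, against 2.73% of all features tested. Vegfa had under 20 UMIs there. The other tip over capillary ratios in PyMT were small, such as -0.13 (-0.19 to -0.06) for Kdr and -0.30 (-0.38 to -0.22) for Nrp1. In KPC, 6 members were past 2-fold, against 11.2% of features, with Pgf higher in tip cells and Kdr, Flt1, Nrp1, Vegfc and Vegfa lower. The KPC ratios were -1.24 (-1.30 to -1.17) for Kdr, -1.19 (-1.29 to -1.10) for Nrp1 and -1.16 (-1.46 to -0.85) for Vegfc, and the median over all features was -0.08. Vegfa was at -1.34, on only 14 tip and 15 capillary UMIs, and at -0.84 with Cd300lg alone as the gate. Vegfc lost this direction, at 0.15, when the capillary gate took Car4 alone. With Cd300lg alone as the capillary gate, a choice made after seeing the data, Kdr was at -0.58 in PyMT and -1.09 in KPC.

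Venule over capillary gave 1 member past 2-fold in PyMT, against 9.35% of features, and 5 in KPC, against 9.88%. Flt4 was lower in venule cells in both, by -1.09 (-1.71 to -0.53) and -1.32 (-1.74 to -0.91). In KPC, Kdr, Flt1 and Nrp1 were lower as well, by -1.44 (-1.54 to -1.34), -1.50 (-1.58 to -1.42) and -1.52 (-1.66 to -1.38), and Pgf was higher, by 1.59 (0.62 to 2.64). With doubled gate thresholds Flt4 was at -0.33 in PyMT, and with Car4 alone as the capillary gate it was at -0.88 in KPC, both short of 2-fold. Nrp2 was higher in venule cells of both libraries without reaching 2-fold, by 0.80 (0.57 to 1.02) and 0.35 (0.18 to 0.52).

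Artery over capillary gave 3 members past 2-fold in PyMT, against 17.5% of features, and 6 in KPC, against 17.7%. Vegfc was higher in artery cells, by 2.89 (2.44 to 3.32) and 2.35 (1.95 to 2.75), and Nrp2 was lower in both. Vegfb was the remaining member in PyMT, at -1.27 with an interval of -4.34 to 0.61 that includes 0 and at -0.93 without cells passing more than 1 gate. In KPC, Kdr and Nrp1 were lower in artery cells, by -1.16 (-1.41 to -0.91) and -1.38 (-1.76 to -1.02), and Kdr was at -0.93 with the stricter filter on barcodes. Pgf and Vegfa were higher there, on 10 and 5 UMIs in artery cells, at 3.09 (1.74 to 4.39) and 1.88 (0.07 to 3.42).

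Lymphatic over blood endothelial gave 7 members past 2-fold in PyMT, against 18.9% of features, and 6 in KPC, against 20.2%. Both libraries had the same pattern for 6 of them. Flt4 was higher by 2.67 (2.55 to 2.79) and 2.80 (2.69 to 2.91), and Nrp2 by 1.92 (1.81 to 2.03) and 1.17 (1.07 to 1.25), as was Vegfb, given above. After thinning to 2000 UMIs, Nrp2 in KPC was at 0.82, short of 2-fold. Flt1 was lower by -1.98 (-2.15 to -1.81) and -2.68 (-2.81 to -2.56), Nrp1 by -2.13 (-2.40 to -1.87) and -2.81 (-3.04 to -2.58), and Vegfc by -1.89 (-2.81 to -1.11) and -2.55 (-3.15 to -2.01). Vegfa was the further member in PyMT, at 1.67 (0.38 to 2.77) on 8 lymphatic UMIs, where the mean per cell gave 0.55, while in KPC it was at -0.57 (-2.07 to 0.63).

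Outside the endothelium the receptor levels have to be read beside genes that such cells should lack. In the Krt8/Krt18 class, Kdr stood at 14.3% of its BEC level in PyMT and 5.0% in KPC, and Pecam1 at 14.6% and 4.3%, so Kdr there lay within the range of endothelial genes that such cells should lack (12.2% to 19.0% and 4.0% to 7.9%). In the KPC class Flt1 at 8.2%, Flt4 at 9.9% and Nrp2 at 10.2% of BECs lay above that range as point values. The intervals of Flt1, at 77.3 CPM (72.2 to 82.7), and Flt4, at 5.06 CPM (3.81 to 6.58) on 55 UMIs, reached into it. That of Nrp2, at 16.7 CPM (14.4 to 19.3), did not. In KPC fibroblasts Kdr was at 10.1% (8.5 to 12) and Pecam1 at 7.9% of BECs. Nrp1 and Nrp2 were at 27.9% and 20.9% in KPC fibroblasts, above the pan-endothelial genes Pecam1, Cdh5, Tie1, Egfl7, Cldn5, Emcn and Plvap, which lay between 5.5% and 13.0%. In the PyMT Krt8/Krt18 class Nrp1 was at 33.3% and Nrp2 at 63.5%, above the 12.2% to 19.0% of the same genes.

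The Krt8/Krt18 class over BECs gave 7 members past 2-fold in PyMT, against 28.8% of features, and 9 in KPC, against 42.1%. Vegfa was higher by 3.28 (2.54 to 4.00) and 3.90 (3.52 to 4.29), and Vegfb by 1.67 (1.34 to 2.00) and 1.17 (0.94 to 1.41). After thinning, Vegfb was at 0.91 and 0.60, short of 2-fold. The remaining members past 2-fold were lower, 5 in PyMT and 7 in KPC. Fibroblast over blood endothelial gave 8 members past 2-fold in PyMT, against 28.6% of features, and 6 in KPC, against 33.5%. Vegfa was higher by 6.76 (5.75 to 7.67) and 4.18 (3.73 to 4.64), and all 3 receptors and both neuropilins were lower in KPC. In PyMT fibroblasts, Nrp2 rests on 1 UMI, Pgf on 0 (a bound only), Vegfb on 4 and Vegfc on 5, and after thinning Nrp2 was at -0.41 and Vegfc at 0.12.

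The Notch3/Higd1b class over BECs gave 0 members past 2-fold in PyMT, against 22.5% of features, and 3 in KPC, against 17.6%. In KPC these were Pgf at 1.02 (0.52 to 1.47), Vegfb at 1.16 (0.23 to 1.95) and Vegfc at -2.92 (-5.20 to -1.37), the last on 3 UMIs. Pgf was at 0.83 without cells passing more than 1 gate, and after thinning Vegfb was at 0.41 and Vegfc at -0.93. Kdr in this class was at 75.5% of its BEC level in KPC, beside 45.1% to 63.7% for the same pan-endothelial genes, and at 89.4% in PyMT, beside 58.9% to 120.8%. The part of endothelial RNA in these levels was not tested.

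Between the tumor models, KPC over PyMT in BECs gave 4 members past 2-fold, all higher in KPC, against 14.2% of features. Flt1 was higher by 1.14 (1.11 to 1.17), Nrp2 by 1.02 (0.96 to 1.09), Vegfc by 1.36 (1.23 to 1.48) and Vegfa by 1.42 (0.86 to 2.00), and the median over all features was 0.14. Kdr was at 0.95 (0.92 to 0.99), just under 2-fold, and Nrp2 was at 0.93 with median-of-ratios size factors. Tumor model, organ, digestion, library and depth cannot be told apart in this comparison.

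The difference between models was not the same in each class. In capillary cells Kdr, Flt1 and Nrp1 were higher in KPC by 1.59 (1.52 to 1.65), 1.66 (1.61 to 1.71) and 1.29 (1.20 to 1.37), and in tip cells by 0.48 (0.41 to 0.54), 0.41 (0.36 to 0.47) and 0.40 (0.31 to 0.48). The capillary class held Car4 at 976 CPM in PyMT and 524 in KPC, and Cd300lg at 105 and 593. The gate may thus select different cells in each library, which cannot be told apart from the tumor model. In artery cells Kdr did not differ beyond its interval, at -0.00 (-0.32 to 0.31). Nrp2 was the exception, with a ratio in tip cells of 1.16 (1.03 to 1.28) that was no smaller than the 1.02 (0.87 to 1.18) in capillary cells. Pgf went the other way in capillary and other cells, at -2.10 (-3.03 to -1.29) and -1.95 (-2.19 to -1.71), but was at 0.18 (0.05 to 0.31) in tip cells.

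Depth also differed between the libraries, and not in the same way in each class. The median was 1879 UMIs in KPC capillary cells against 4254 in PyMT, and 5450 against 5845 in tip cells. In venule cells it was 3837 in KPC against 3486 in PyMT. Kdr was there at 358 against 321 CPM, Flt1 at 573 against 376 and Nrp1 at 180 against 157. In artery cells it was 2485 against 3439, with Kdr at 436 against 437 CPM, Flt1 at 847 against 607 and Nrp1 at 198 against 170. With cells thinned to 2000 UMIs, which left out 700 of the KPC and 230 of the PyMT capillary cells, Kdr was at 953 and 319 CPM, Flt1 at 1596 and 523 CPM, and Nrp1 at 476 and 211 CPM in capillary cells. The 3 levels were again higher in KPC. Random thinning keeps the expected CPM of a cell, and moves a class level only through the cells left out and the weight of each cell. It therefore cannot show whether depth has a part in the difference, which was not tested. Genes per cell were not matched.

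**Figure D3:**
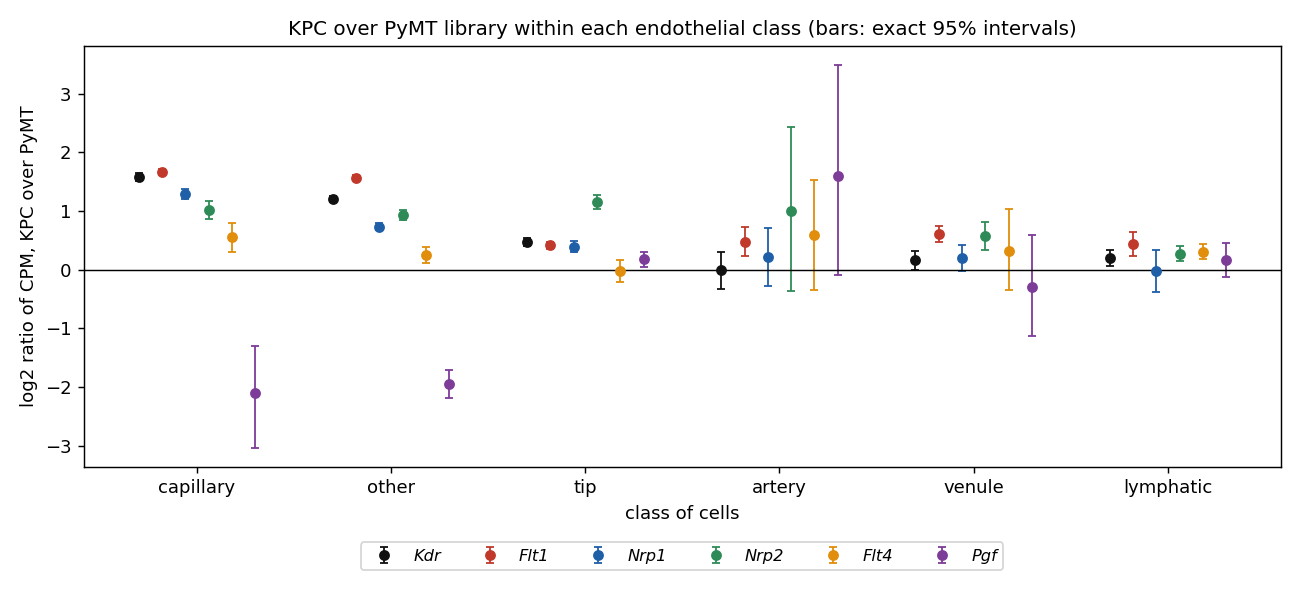
log2 ratio of CPM in the KPC over the PyMT library (vertical axis) of the receptors, the neuropilins and Pgf within 6 endothelial classes (horizontal axis), with exact 95% intervals as bars and 0 as the line of equal levels. Kdr and Flt1 lie at 1.59 and 1.66 in capillary cells and at 0.48 and 0.41 in tip cells, and Pgf lies below 0 in capillary and other cells.

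The gates are thresholds, so BECs thinned to 2000 UMIs were also binned by the UMIs of the tip pair. The tip pair, and the capillary pair used below, also gate their classes in the same cells. The bins are therefore no independent check of the class levels. Pgf went from 39.7 CPM (36.3 to 43.5) in PyMT cells with 0 UMIs of Apln and Angpt2 to 209 (178 to 244) in cells with 4 or more, and from 13.9 (10.9 to 17.4) to 243 (211 to 279) in KPC. It was higher in each bin than in the one before in both libraries, although the intervals of the PyMT cells with 1 and with 2 to 3 UMIs overlapped. Kdr and Flt1 went down along the same axis in KPC, from 597 CPM (577 to 618) to 421 (378 to 468) and from 1035 (1008 to 1062) to 492 (445 to 542). In PyMT, Kdr was at 274 (265 to 284) and 267 (232 to 306) at the ends, and Flt1 at 415 (403 to 426) and 523 (474 to 577). The libraries thus shared the Pgf pattern and not the receptor pattern.

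Along the capillary pair, Kdr in KPC went from 447 CPM (431 to 463) in cells with 0 UMIs of Car4 and Cd300lg to 1507 (1315 to 1718) in the 74 cells with 4 or more. Flt1 went from 749 (729 to 770) to 2108 (1881 to 2355), and Nrp1 from 245.5 (234 to 257) to 615 (495 to 755). In PyMT, Flt1 went from 381 (369.5 to 392.2) to 570 (529 to 612), while Kdr was at 265 (256 to 275) and 294 (265 to 324). Pgf was lowest in the top bin in PyMT, with 7 UMIs in 654 cells, and had 0 UMIs in the 74 KPC cells of that bin, whose interval (up to 24.9 CPM) includes the levels of the 2 bins before it. Within the PyMT capillary class, cells with at least 2 Cd300lg UMIs had Kdr at 443 CPM (411 to 477), against 288 (276 to 300) in those with 0, a split chosen after seeing the data.

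**Figure D4:**
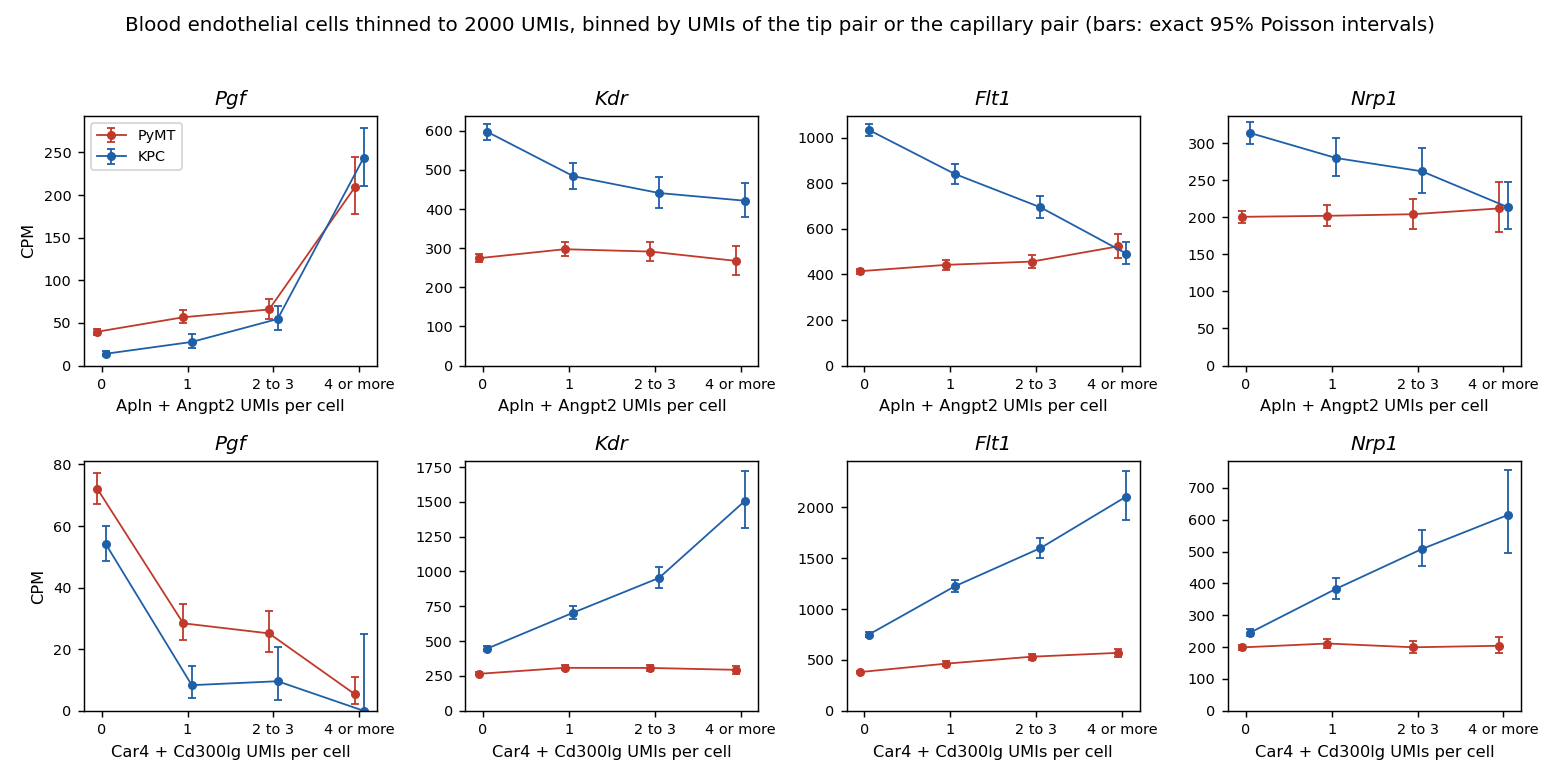
CPM of Pgf, Kdr, Flt1 and Nrp1 (vertical axes, linear from 0) in BECs thinned to 2000 UMIs and binned by the UMIs per cell of the tip pair (top row) or the capillary pair (bottom row), for the PyMT (red) and KPC (blue) libraries, with exact 95% Poisson intervals as bars. Pgf climbs along the tip pair in both libraries (to 209 and 243 CPM), and Kdr, Flt1 and Nrp1 climb along the capillary pair in KPC (Kdr from 447 to 1507 CPM).

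Of 49 other genes of the VEGF pathway, listed by role, 44 could be compared between tip and capillary cells in each library. Tip over capillary put 2 past 2-fold higher and 0 lower in PyMT, and 3 higher and 8 lower in KPC, against 2.73% and 11.2% of all features. Esm1, an endothelial proteoglycan gene induced by VEGF-A, which also served as a check of the tip class, was past 2-fold in both, by 2.26 (2.16 to 2.36) and 1.27 (1.18 to 1.35). Venule over capillary put 2 higher and 4 lower in PyMT, and 2 higher and 10 lower in KPC, of 44 and 43 tested, against 9.35% and 9.88% of all features. The 4 that were lower in both belong to the VEGF-induced list, with Igfbp3, a binding protein for insulin-like growth factors, at -1.89 (-2.02 to -1.77) and -3.96 (-4.09 to -3.84), Esm1 at -1.51 (-1.98 to -1.07) and -3.00 (-3.27 to -2.74), Dll4, the Notch ligand, at -1.11 (-1.48 to -0.76) and -1.46 (-1.76 to -1.18), and Nid2, a basement membrane gene, at -1.07 (-1.41 to -0.74) and -1.57 (-1.91 to -1.24). Of the 14 genes of that list, 1 was past 2-fold higher and 4 lower in PyMT, and 1 and 7 in KPC. The median log2 ratio of the list was -0.06 in PyMT and -0.995 in KPC. Shb, an adaptor of VEGFR2, was higher in venule cells, by 1.60 (1 to 2.17) and 1.33 (0.73 to 1.94).

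Artery over capillary put 10 of these genes higher and 2 lower in PyMT, and 7 higher and 5 lower in KPC, of 44 and 42 tested, against 17.5% and 17.7% of all features. Cxcr4, a chemokine receptor, was higher by 2.06 (1.37 to 2.69) and 2.33 (1.09 to 3.47), Epas1, which encodes HIF-2α, by 1.83 (1.64 to 2.02) and 1.24 (1.03 to 1.44), Lmo2 by 1.53 (1.26 to 1.79) and 1.30 (1.05 to 1.55), and Dll4 by 1.35 (1.07 to 1.61) and 1.11 (0.76 to 1.44). Spred1, an inhibitor of the Ras pathway, was lower by -1.05 (-1.83 to -0.36) and -1.09 (-1.94 to -0.35). Lymphatic over blood endothelial put 6 higher and 7 lower in PyMT, and 4 higher and 17 lower in KPC, of 46 and 47 tested, against 18.9% and 20.2% of all features. The neuropilin ligand Sema3d was higher by 5.14 (4.87 to 5.42) and 5.29 (4.88 to 5.72) and Sema3a by 1.51 (1.23 to 1.79) and 3.54 (3.24 to 3.84), in the class where Nrp2 was highest and where Nrp1 was lowest among endothelial classes. Src, a kinase, was higher too, by 3.34 (2.36 to 4.27) in PyMT and 1.55 (0.05 to 2.87) in KPC. Its levels were low, at 5.997 CPM against 0.593 in PyMT and 1.98 against 0.677 in KPC. Esm1, Igfbp3, Cxcr4 and Spry4, an inhibitor of receptor kinase signaling, were the leading genes lower in lymphatic cells, Esm1 by -2.52 (-2.84 to -2.21) and -2.61 (-2.79 to -2.44).

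Vegfd, the other ligand of VEGFR3, was higher in fibroblasts than in BECs. It was at 62.8 CPM in PyMT and 120.6 in KPC fibroblasts against 2.15 and 2.11 in BECs, a ratio of 4.87 (3.62 to 5.90) and 5.84 (5.42 to 6.28). The fibroblast comparison put 9 of the 49 genes higher and 17 lower in PyMT, and 7 and 18 in KPC, of 46 and 47 tested, against 28.6% and 33.5% of all features, and the genes higher in both included Src and Plxna1, a semaphorin receptor. The lower genes were led by Dll4, Esm1, Ptprb, the endothelial phosphatase, and Nos3, the endothelial nitric oxide synthase. The PyMT side of these ratios rests on 28 fibroblasts with 127358 UMIs in all. Its intervals were wide, such as -2.90 (-5.94 to -1.04) for Dll4 and -2.59 (-7.90 to -0.11) for Nos3. The Krt8/Krt18 class had 8 higher and 21 lower in PyMT, and 6 and 28 in KPC, of 47 and 48 tested, against 28.8% and 42.1% of all features, with Sema3e, Src, Prkca and Dusp5 the leading genes higher in both and Esm1, Igfbp3, Pecam1 and Nid2 the leading genes lower. The Notch3/Higd1b class had 12 higher and 4 lower in PyMT, and 4 and 5 in KPC, of 46 and 47 tested, against 22.5% and 17.6% of all features, with Nr4a1 higher and Igfbp3 lower in both. KPC over PyMT in BECs put 7 higher and 2 lower of 48 tested, against 14.2% of all features.

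Over the 18 sums of a library and class, the genes whose levels (log2 of CPM + 1) were most like Kdr were Tspan12 (Pearson r = 0.99), Prkch, Ushbp1, Plekho1 and B4galt4 (0.96), among 10585 genes. For Flt1 they were Tnfaip1 (0.96), Kcnq1, Adgrl4, Ccdc85a and Mcf2l (0.95). For Flt4 they were 2900026A02Rik (0.94), Klhl4, Stab1, Slc8b1 and Abhd17b (0.91), for Nrp1 Ifi203 (0.96), Mndal, Cdc42ep3, Sparcl1 and Rgcc (0.93), and for Nrp2 Crybb3 (0.92), Adgrg3, Gpr182, Snrnp70 and Cnot6 (0.90). The ligands had less similar partners, with Sfxn2 (0.82), Raph1, Dph7, Fahd1 and Fam49a for Pgf, Tmem184b (0.81), Azin1, Slc35b1, Il4ra and Aggf1 for Vegfc, Cstb (0.90), Prkcd, Ubtd2, Slc6a8 and Neo1 for Vegfa, and Tex10 (0.87), Pde7a, Spata5, Cdk6 and Acad8 for Vegfb. Among the members, Flt1 and Nrp1 were the most alike (0.90), then Kdr and Flt1 (0.85). The 18 points share 2 libraries and differ in depth, and these values describe them only.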

How the data were processed

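For each tumor model, 1 droplet library of sorted endothelial cells was sequenced, with 55547926 UMIs in PyMT and 44441942 in KPC. The authors aligned reads to mm10 with Cell Ranger (3.0 in the submitters' processing notes, 3.0.2 in the matrix headers) and deposited whole-number UMI counts per gene and barcode, without normalization. The methods name both v3 and v2 chemistry. A barcode was kept with 500 genes or more and mitochondrial UMIs below 10%. No doublet caller was used here; leaving out the highest 8% of cells by UMIs was tried in its place. Cells were classed by gate genes, UMIs were summed per class and library, and levels, ratios and shares were given with exact 95% intervals (Python 3.11.15, numpy 2.4.6, scipy 1.17.1). A side with 0 UMIs was set to 3 counts and its ratio read as a bound. Thinning drew 2000 UMIs per cell with seed 0 and left out shallower cells.

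The members, gates and gene lists were chosen with earlier results of these data known. Genes named were the 9 members, the gate and marker genes, up to 4 genes per direction of a 49-gene VEGF pathway list that were past 2-fold with intervals excluding 0 in both libraries, and the 5 genes most like each member among those with at least 100 UMIs in each library, gate genes left out. The ratio calculation was tested on simulated counts. Alternatives covered the barcode filter (a stricter one of 1000 genes and 5% mitochondrial UMIs), gates, doublets, immune and cycling cells, depth and scaling. Positions are from GENCODE M21 and promoters from RefSeq (GRCm38.p6), matched by identifier or symbol for all 9 members.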

Additional observations from a re-analysis of the deposited data

Results flagged for a closer look

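For 4 pairs of a member and a contrast, the ratio had opposite signs in the PyMT and KPC libraries with both intervals excluding 0. The share of all features with such a change of sign is not given here. The difference between the libraries was not tested, since each model has 1 library.

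Kdr in artery over capillary cells was at 0.43 (0.23 to 0.63) on the log2 scale in PyMT and at -1.16 (-1.41 to -0.91) in KPC, and Flt1 was at 0.24 (0.07 to 0.41) and -0.94 (-1.12 to -0.76). With Cd300lg alone as the capillary gate, chosen after seeing the data, the PyMT values were -0.02 for Kdr and -0.13 for Flt1. Flt4 in tip over capillary cells was at 0.25 (0.07 to 0.43) in PyMT and -0.32 (-0.57 to -0.07) in KPC, where it was 0.17 with doubled gate thresholds and 0.12 with Car4 alone as the capillary gate. Flt1 in the Notch3/Higd1b class over BECs was at 0.38 (0.01 to 0.73) in PyMT, on 27 cells, and at -0.58 (-0.74 to -0.41) in KPC. The PyMT value was -0.47 with doubled gate thresholds and -0.43 after thinning to 2000 UMIs.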

How the results depend on the processing

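Of 162 counts of members past 2-fold recomputed under 12 alternatives over 15 comparisons, 158 stayed within 1.5 times the reported count. For venule over capillary in PyMT the count was 4 after thinning to 2000 UMIs and 2 without cells passing more than 1 gate, in place of 1. For the Notch3/Higd1b class over BECs in PyMT it was 1 with doubled gate thresholds (7 cells) and 2 without cells passing more than 1 gate (11 cells), in place of 0. Of 1404 member ratios recomputed, 1155 stayed inside the reported interval, and 1 ratio past 2-fold reversed: Vegfc in tip over capillary cells of KPC was 0.15 with Car4 alone as the capillary gate, in place of -1.16. The causes were not tested. The gates of Car4 alone and Cd300lg alone were 2 alternatives chosen after seeing the data. Over its alternatives, Pgf in tip over capillary cells ran from 2.43 to 3.10 in PyMT and from 4.44 to 5.92 in KPC, and Kdr from -0.58 to -0.08 and from -1.61 to -1.08. Nrp1 in PyMT was 0.03 after thinning, in place of -0.30. No paired analysis was possible because each tumor model has 1 library. Depth limits Vegfa in BECs (46 and 67 UMIs), all ligands in artery cells other than Vegfc, and PyMT fibroblasts.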
